A study of Drosophila melanogaster with 2 samples.

Results

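Distal intergenic summits of the sisA ChIP-seq profile are the peak summits that lay more than 2000 bp from every annotated protein-coding transcription start site (TSS) and outside every protein-coding gene body, so that each sits in a gap between 2 flanking genes or, for 9 of them, between a gene and the end of an arm. Of the 5202 peaks in the conservative list, which the authors thresholded for irreproducible discovery rate (IDR) across both replicates, 5133 had a summit on the 6 chromosome arms used here, and 776 of those (15.1%) met the rule and are the members described here. The rule used the position of a summit and the gene annotation, and no measured value. The data came from Drosophila melanogaster whole embryos aged 0 to 18 hours, of transgenic flies that carried a sisA-eGFP fusion, and chromatin sheared by sonication was precipitated with an antibody to GFP. There was 1 group with 2 biological replicates from a single strain, and the sex of the embryos was not collected, so the design compares no conditions and every result is a description of this group without a test. Only peak lists were used, with no read counts and no control library, so the depth behind each peak is unknown. In whole embryos, binding in fewer cells and weaker binding in all cells cannot be told apart.

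The sisA gene encodes a basic leucine zipper (bZIP) transcription factor that is known as an X-linked signal element, 1 of the zygotic proteins whose dose in the early embryo turns on Sex-lethal in females. In Drosophila, much of the sequence that directs patterned transcription in the embryo lies away from promoters, as enhancers in introns and in the gaps between genes, and such gaps also hold boundary elements, Polycomb response elements and noncoding RNA genes. A gap element may act on either of its neighbours or on a gene farther away, so a flanking gene is named here for its place and not as a target.

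A 7-base core, CAGTGCA or CAGTGTA, was more frequent beside these summits than 500 bp away from them, and in most cases it lay to the side of the summit and read away from it. The core was chosen after the counts of all 6-base words at these summits had been seen, so its frequency is a description. The 5 windows shown here are members with a core on each side of the summit, taken from those with the highest signals, and each runs 110 bp to both sides of the summit on the + strand of dm6. Capitals mark the core, which on the left side appears as its reverse complement, TGCACTG or TACACTG.
slp1/slp2 chr2L:3832409-3832629: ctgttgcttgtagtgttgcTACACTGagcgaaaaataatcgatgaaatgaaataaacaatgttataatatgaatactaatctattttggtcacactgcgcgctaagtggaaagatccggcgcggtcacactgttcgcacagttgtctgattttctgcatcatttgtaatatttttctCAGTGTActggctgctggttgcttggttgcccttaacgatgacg
CG44362/CG7560 chr3L:11416851-11417071: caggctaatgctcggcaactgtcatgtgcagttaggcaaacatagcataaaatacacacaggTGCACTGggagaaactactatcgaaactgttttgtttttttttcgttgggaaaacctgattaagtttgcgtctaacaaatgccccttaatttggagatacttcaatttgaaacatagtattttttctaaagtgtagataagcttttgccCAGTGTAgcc
CG9300/Shal chr3L:19560699-19560919: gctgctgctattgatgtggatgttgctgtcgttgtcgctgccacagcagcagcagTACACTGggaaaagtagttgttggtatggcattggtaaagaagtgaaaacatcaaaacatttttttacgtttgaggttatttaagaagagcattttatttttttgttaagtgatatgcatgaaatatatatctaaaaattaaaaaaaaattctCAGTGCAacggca
Doc2/Doc1 chr3L:9025775-9025995: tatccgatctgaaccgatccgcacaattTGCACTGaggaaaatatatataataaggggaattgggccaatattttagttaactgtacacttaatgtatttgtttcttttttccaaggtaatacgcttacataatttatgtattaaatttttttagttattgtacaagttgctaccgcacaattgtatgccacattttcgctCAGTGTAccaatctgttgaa
dnc/Myc chrX:3355253-3355473: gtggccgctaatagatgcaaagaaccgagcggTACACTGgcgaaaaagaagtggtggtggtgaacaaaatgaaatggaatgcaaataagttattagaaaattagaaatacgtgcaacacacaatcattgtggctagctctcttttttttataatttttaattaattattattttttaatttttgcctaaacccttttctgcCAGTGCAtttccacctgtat
In the slp1/slp2 window the middle bases of the cores lay 88 bp before and 70 bp after the summit, and the CG44362/CG7560 cores lay 45 bp before and 104 bp after it. The spacing between the facing cores was 158 bp at slp1/slp2, 149 bp at CG44362/CG7560, 153 bp at CG9300/Shal, 173 bp at Doc2/Doc1 and 169 bp at dnc/Myc. Their signals in the conservative list were 712, 674, 479.8, 365 and 350.3, in the order shown. A run of T stands just inside most of these cores, on the side of the summit, and reads as a run of A just after the left-hand core.

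Other members with far higher signals lacked such a pair within 150 bp of the summit. Of the strongest, 3 are shown with 75 bp to both sides of the summit on the + strand of dm6, the core again in capitals. Outward cores lay a median of 80.0 bp from the summit, as given below. Windows this short would miss many of them and cannot by themselves show that a pair is lacking.
mtSSB/tara chr3R:16222409-16222559: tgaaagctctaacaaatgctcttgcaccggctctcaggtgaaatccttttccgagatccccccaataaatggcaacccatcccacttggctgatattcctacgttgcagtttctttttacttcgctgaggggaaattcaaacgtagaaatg
CG4004/Paics chrX:12751331-12751481: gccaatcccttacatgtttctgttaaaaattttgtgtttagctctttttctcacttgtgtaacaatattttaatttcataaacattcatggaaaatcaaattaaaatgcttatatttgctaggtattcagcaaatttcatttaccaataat
CG4004/Paics chrX:12752282-12752432: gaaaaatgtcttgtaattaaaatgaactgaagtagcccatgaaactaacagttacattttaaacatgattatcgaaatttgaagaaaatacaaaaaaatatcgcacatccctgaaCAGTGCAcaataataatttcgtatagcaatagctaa
The mtSSB/tara summit and the first CG4004/Paics summit had no core within 150 bp. The second CG4004/Paics summit had 2 cores within 150 bp that did not form a facing pair, and its window shows the core 43 bp after the summit. Among the 20 members with the highest signals, 6 (30.0%) had a core within 150 bp.

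Within 100 bp of the summit, 239 of the 776 distal intergenic summits (30.8%) held CAGTGCA or CAGTGTA on either strand. The background was 5.14% of 167371 windows of the same length, 201 bp, tiled over all sequence that meets the rule. The windows centred 500 bp to the left and to the right of the same summits held the core in 5.15% and 5.41%. CAGTGCA alone was present at 147 summits (18.9%, with 3.31% of tiles), and CAGTGTA at 112 (14.4%, with 1.89% of tiles). The share was 26.5% at the 1274 distal intronic summits, those more than 2000 bp from a TSS but inside an intron, and 10.9% at the 1905 promoter summits, those within 500 bp of a TSS. The core was therefore frequent at distal summits in introns as well, and less frequent at promoters. No factor is assigned to the core here, and whether it has a part in the signal was not tested.

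Most cores had the same direction relative to the summit. Within 150 bp, 308 members (39.7%) held 410 cores, beside 7.56% of 301 bp tiles with a core, and 363 of the 410 (88.5%) read away from the summit. Those 363 lay a median of 80.0 bp from the summit, with quartiles of 56.0 and 102 bp. At distal intronic summits 85.1% of cores read away, also at a median of 80.0 bp, and at promoter summits 69.7% did, at 81.0 bp. A facing pair, with a core on each side and both reading outward, was present at 72 members (9.28%), with a median spacing of 158 bp and quartiles of 145 and 176 bp. The same arrangement was found at 71 distal intronic summits (5.57%) and at 15 promoter summits (0.787%). On the summit side of the 363 outward cores, T stood at 5, 6 and 7 bases before the core in 83.2%, 85.4% and 80.7%. At 3 bases before it the share was 73.8%, and at 4 bases 45.2%. No background share of T was counted. This context belongs to the same sequences in which the core was found and was not sought elsewhere.

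**Figure D1:**
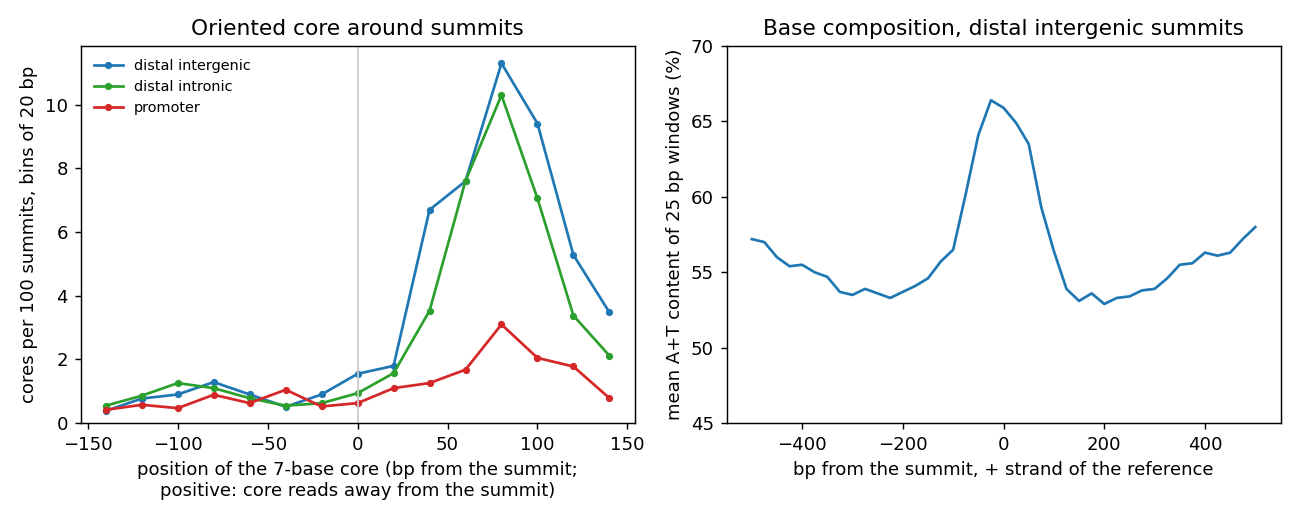
Left, cores (CAGTGCA or CAGTGTA) per 100 summits in bins of 20 bp by their position, where positive values mean that the core reads away from the summit, for distal intergenic, distal intronic and promoter summits. Right, the mean A+T content of 25 bp windows around the 776 distal intergenic summits. The outward cores peak near 80 bp from the summit, and the A+T content is highest within 25 bp of the summit and low 200 bp away.

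On average the summits lay in an A+T-rich stretch. The mean A+T content was taken over all members, with or without a core, and was not aligned on cores. Whether the core lies at the edge of such a stretch was not tested. The mean A+T content of 25 bp windows was 65.9% at the summit, 56.5% at 100 bp to the left and 56.4% at 100 bp to the right, and 53.7% and 52.9% at 200 bp. The median G+C content of the 201 bp windows was 35.8% in members and 41.3% in tiles of the same kind of sequence, and promoter and distal intronic summits both had 35.3%. Of 2080 words of 6 bases counted on both strands, the 10 whose share exceeded that of the flanks by the most were fragments of the core and of its neighbouring bases, or words of A and T alone. AATATA was present at 37.6% and in 22.2% of tiles, AAATAT at 49.5% and in 33.5% of tiles, and AAAATA at 51.5% and in 38.2% of tiles. The last A+T words were TTAAAA, at 43.8% and in 32.3% of tiles, and ATATAA, at 33.5% and in 20.9% of tiles. The words of the core stood further above the tiles, with CAGTGC at 26.4% and in 8.49% of tiles, and AGTGCA at 31.2% and in 12% of tiles. AGTGTA was present at 25.1% and in 7.55% of tiles, ACACTG at 22.8% and in 7.20% of tiles, and CACTGA at 24.6% and in 8.03% of tiles.

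Motifs of bZIP factors were no more frequent at these summits than in the tiles or the flank windows, or little more so. The cyclic AMP response element TGACGTCA was found at 0 members and in 0.288% of tiles, and its TGACGT part at 11 members (1.42%) and in 4.25% of tiles. The AP-1 site TGANTCA was present at 35 members (4.51%), with 3.52% of tiles, and the C/EBP site TTGCNNAA at 133 (17.1%), with 17.4% of tiles. The Zelda site CAGGTA, bound by the factor that opens chromatin at the onset of zygotic transcription, was present at 3.99% of members and in 4.29% of tiles. GAGAG, the site of GAGA factor, was present at 24.5% and in 21.1%, and the homeodomain site TAATTA at 15.2% and in 13.8%. Among the 22 listed motifs the largest excesses over the flank windows were those of TATAAA, at 31.7% of members and a mean of 20.4% in the flanks, and TGCATA, at 19.8% and 14.0%. TGCATA, taken here as a part of the Su(Hw) insulator site, begins with the letters that end CAGTGCA and can overlap it. The DREF site TATCGATA, a promoter element, was found at 0.515% of members and 5.88% of promoter summits. These are matches of letters in a window and were not compared with binding of the factors.

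The core was present on every arm that held members and at every level of signal, with its lowest share among the weakest summits. Within 150 bp it was present at 43.6% of members on 2L, 35.4% on 2R, 39.7% on 3L, 37.8% on 3R and 41.0% on the X. With the members split into 4 groups of equal size by signal, the shares from the strongest group to the weakest were 41.8%, 40.2%, 47.9% and 28.9%. The median signal was 113 in the 308 members with a core and 109 in the 468 without. None of the 9 members inside an annotated transposable element had one.

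Signal is the value that the authors' peak list gives each peak, and it is compared here only within a list. In the conservative list the distal intergenic summits had a median signal of 110.2, with quartiles of 80.2 and 172 and a range from 2.06 to 1995. Their median stood at the 41.1 percentile of all 5133 summits. Promoter summits had a median of 157, at the 60.5 percentile, and distal intronic summits 116, at the 44.4 percentile. The share of distal intergenic summits was 9.81%, 14.4%, 17.4% and 18.9% when all summits were split into 4 groups of equal size, from the strongest to the weakest. Near the distance threshold, the 77 intergenic summits at 1501 to 2000 bp from a TSS, which were left out, had a median signal of 146, and the 50 kept at 2001 to 2500 bp had 131.

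The replicates differed in how many of these summits their own thresholded lists held. Those lists had 4720 summits on the arms for replicate 1 and 3408 for replicate 2. A summit within 100 bp was found for 542 members (69.8%) in the list of replicate 1, beside 75.8% of all summits. In the list of replicate 2 it was found for 418 (53.9%), beside 62.0% of all. Both lists held 371 members (47.8%), beside 57.5% of all summits and 67.4% of promoter summits, and neither list held 187 (24.1%), beside 19.7% of all summits. Of the 194 members with the highest signals, 172 to 1995, 192 were in both lists. Of each following 194 members in order of signal, 141, 38 and 0 were in both. The ranked lists from before thresholding are far longer, with 99657 summits on the arms for replicate 1 and 104373 for replicate 2. In those lists 735 members (94.7%) had a summit in each replicate, beside 94.4% of all summits. The conservative list was itself thresholded across both replicates, so a high share was built in and is no independent check. Across those 735 peaks Spearman's rho between the replicate signals was 0.793, beside 0.907 across 1817 promoter peaks, a description over peaks that share the 2 libraries.

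**Figure D2:**
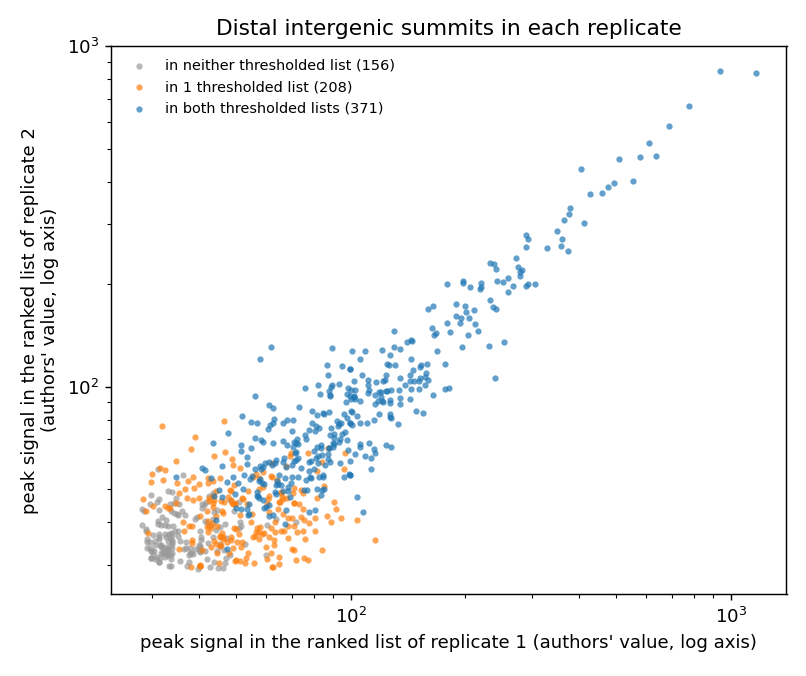
Peak signal of each distal intergenic summit in the ranked list of replicate 1 (x axis) and of replicate 2 (y axis), both as log axes, for the 735 members found in both ranked lists; colours give the number of thresholded single-replicate lists that held the member. The 371 members in both thresholded lists extend to the highest signals, and members in neither list lie at the low end in both replicates.

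A few members had very low signals. Signals under 10 were listed for 9 members, and 7 of the 9 had another summit of the list within 250 bp, against 27 of the other 767 (3.52%). The weakest, with a signal of 2.06 in the gap between RFeSP and chinmo, lay 201 bp from a summit with a signal of 95.4. Such members count as separate sites in every total given here.

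Distal intergenic sequence held fewer summits for its length than the rest of the genome. It made up 34.1 Mb, or 25.5% of the bases of the arms, and held 22.7 summits per Mb, whereas all other sequence held 43.7 per Mb. Relative to the density over all arm bases, 38.3 per Mb, the ratio was 0.593. The members per Mb numbered 28.6 on 2L, 25.9 on 3R, 23.9 on 3L, 18.8 on the X and 16.6 on 2R. Chromosome 4 held none in 0.239 Mb of such sequence, and only 1 summit of any kind. The X carried the highest density of other summits, 52.1 per Mb, and the lowest ratio above 0, 0.421. The list of replicate 1 alone gave 15.6 members per Mb on the X and 19.6 over all arms, and that of replicate 2 alone gave 10.5 and 13.7.

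The longest gaps were nearly empty of summits. The 15 gaps of over 200 kb made up 14.6% of the distal intergenic bases and held 17 members, 3.41 per Mb, whereas the other gaps held 26.0 per Mb. With those long gaps left out, the density was 29.5 per Mb on 2L, 28.5 on 3L, 27.4 on 3R, 22.4 on the X and 21.4 on 2R. Annotated transposable elements covered 11.5% of distal intergenic bases and held 9 members (1.16%). How many reads could be placed in repeats is not known from the peak lists, and the part of this in the empty gaps was not tested.

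**Figure D3:**
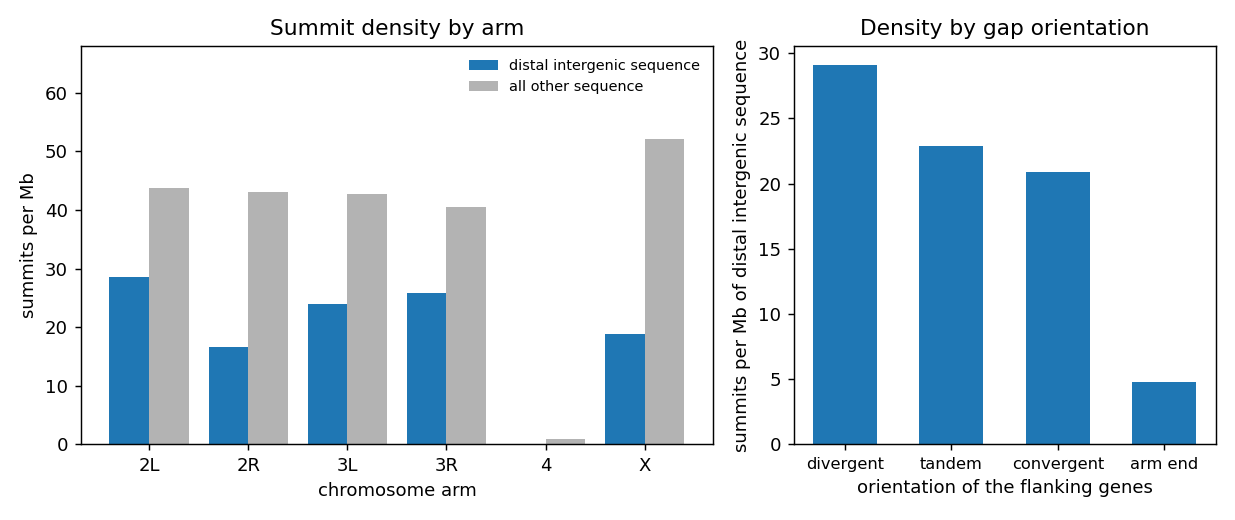
Left, summits per Mb on each chromosome arm in distal intergenic sequence and in all other sequence. Right, distal intergenic summits per Mb by the orientation of the flanking genes. The distal intergenic bars are lower than those of other sequence on every arm, with 18.8 against 52.1 on the X, and the bar for divergent genes, at 29.1, is the highest on the right.

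The density differed with the orientation of the neighbours. Gaps between divergent genes, whose starts both face the gap, held 214 members (27.6%) in 21.6% of the bases, or 29.1 per Mb. Gaps between genes in tandem held 384 (49.5%) in 49.2% of the bases, and gaps between convergent genes 169 (21.8%) in 23.7%, or 22.9 and 20.9 per Mb. The median signals were 120.4, 105 and 109.6 in that order. Gaps at the ends of arms held 9 members in 5.53% of the bases. The members lay nearer to a TSS than the sequence available to them: the median distance to the nearest TSS was 7779 bp, and 11144 bp over all bases that meet the rule. Within 5000 bp of a TSS were 258 members (33.2%) and 23.9% of bases. Both comparisons include the bases of the gaps of over 200 kb, which held few members, and were not made without them. The summit lay upstream of its nearest TSS for 461 members (59.4%). The same share over the bases was not counted, and the rule leaves out gene bodies, so this is not read as a preference for either side.

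Members lay in a minority of gaps. Of 2931 gaps with bases that meet the rule, 434 held a member, and those had a median length of 20168 bp, against 5019 bp for the gaps with none. The 72 gaps with at least 3 members held 335 of them (43.2%). Another member lay within 5000 bp of 322 (41.5%). These counts have no background beside them, and gaps of unequal length give unequal room. Whether members lie closer together than random placement would put them was not tested.

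Of the gaps that held the most members, 4 are described here. The gap between hng3 and CG13898 held 11 members in 47.9 kb, the strongest with signals of 279.9 and 217 in replicates 1 and 2. The gap between CG44362 and CG7560 held 10 in 27.3 kb, with signals from 74.6 to 674, and CG6168 to CG6163 held 10 in 40.3 kb, with signals from 76.8 to 408. These 3 gaps are on 3L. The gap from RFeSP, the Rieske protein of respiratory complex III, to chinmo, a BTB zinc finger factor that specifies temporal identity in neurons and male identity in testis stem cells, held 9 members in 37.1 kb of 2L. There the strongest summit had signals of 576 and 473 in replicates 1 and 2, and 3 others exceeded 500 in the conservative list. The gaps between NijA and CG43245 and between Ids and sty also held 9 members each.

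**Figure D4:**
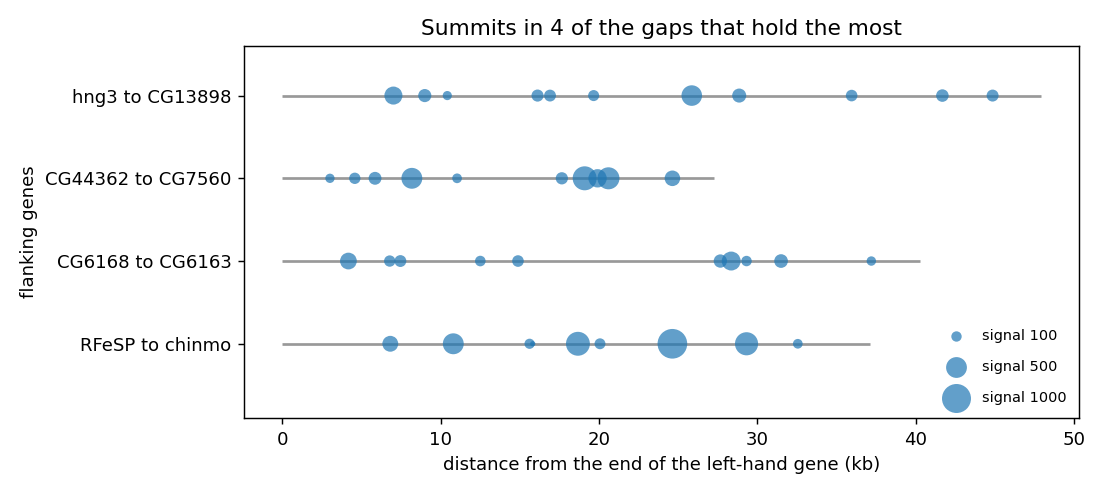
Position of each distal intergenic summit, as the distance in kb from the end of the left-hand gene, in 4 of the gaps that hold the most. The line is the length of the gap and the area of a point grows with the signal in the conservative list. The 11 summits between hng3 and CG13898 are spread along the gap, and the largest points lie between RFeSP and chinmo.

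The strongest distal intergenic summits lay beside genes of several kinds. All 20 with the highest signals, 636 or more, were found in both replicate lists. The first, on 2R between Su(z)2 and CG13323, had signals of 1164 in replicate 1 and 832 in replicate 2 and ranked 14 among the 5133 summits. Su(z)2 and its neighbour Psc are Polycomb group genes, which encode related proteins of a chromatin-silencing complex. Members also lay on both sides of Psc: that toward CG33798 had signals of 554 and 403, and that toward CG13321 had 410.5 and 302. The second strongest, on 3R, lay 3167 bp upstream of tara, which encodes a nuclear coregulator of the trithorax group, and 17234 bp from mtSSB, the mitochondrial single-stranded DNA-binding protein. Its signals were 938 and 846.

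On the X, 2 of the 20 lay 1621 and 2572 bp from CG4004 in the 7.25 kb gap before Paics, an enzyme of purine synthesis. Their signals were 778 and 669 for the first and 689 and 583 for the second, in replicates 1 and 2. Between betaTub60D, a beta-tubulin, and slbo, the C/EBP bZIP factor of border cell migration, 2 summits had signals of 609.7 and 519, and of 493 and 397. The summit 3352 bp upstream of foxo, the forkhead factor of insulin signalling, had 475 and 385. That between slp1 and slp2, a pair of forkhead pair-rule genes, had 378 and 334 and lay 5420 bp from slp1 and 4321 bp from slp2. The gap between blw, the ATP synthase alpha subunit, and CycB, cyclin B, is only 1.34 kb long, and its summit, with 507 and 467, met the rule because the genes converge and their starts lie away from it. In each of these summits replicate 1 had the higher listed value; how the signals of the replicates were scaled is not known, so their levels are not compared.

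The remaining members of the 20 had signals in the conservative list from 636 to 1110.1. They lay between COX7AL2 and CG31668, between CG13970 and CG10651, between Cyt-c1L and eEF1gamma, a translation elongation factor subunit, between dpr17, a cell surface protein of synaptic partner choice, and CG4702, between CG16721 and Act5C, a cytoplasmic actin, and between CG43131 and RabGGTa, as well as in the gaps of chinmo and CG7560 already described. By orientation 8 of the 20 were in convergent gaps, 7 in divergent and 5 in tandem gaps.

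A promoter summit at the neighbours was no more frequent than at other genes. Of the 4550 protein-coding genes that border a gap with distal intergenic bases, 790 flank a member (17.4%). Of these 790, 105 (13.3%) carried a promoter summit, defined as above, beside 14.9% of all bordering genes. At least 1 flanking gene had a promoter summit for 176 members (22.7%), and both had for 11. For the other 600 (77.3%) neither flanking gene had one. The same counts over all gaps or bases were not made, so these shares of members are not read as a trait of theirs.

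Several lists of embryonic patterning genes had a larger share of genes beside a member than the 17.4% of bordering genes in general; these are counts over listed genes, without a test. Neighbouring genes of a list can share a gap and its summits, and each is then counted. Doc2 and Doc1, mid and H15, slp1 and slp2, pyr and ths, and Wnt4 and wg are such pairs, so the listed genes are not independent cases. Among T-box and GATA factors 6 of 12 did so (50%), and their gaps held 57.2 members per Mb, beside 22.7 per Mb for all. The strongest was the Doc2/Doc1 summit, with signals of 201 in replicate 1 and 166 in replicate 2, beside the Dorsocross genes of amnioserosa and heart. The summit 9215 bp from mid, a T-box gene of heart and segment patterning, had 179 and 154, and that 8997 bp from its neighbour H15 had 109 and 62.8. Mid flanked 7 members and H15 flanked 5.

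Among secreted signalling genes 13 of 26 (50%) flanked a member, with 39.9 per Mb. Their strongest summits lay between pyr and ths, the FGF ligands of mesoderm spreading, with signals of 147 in replicate 1 and 104 in replicate 2, and between Wnt4 and wg, neighbouring Wnt ligands, with 125 and 97.4. Among gap and pair-rule genes 7 of 16 (43.8%) flanked a member. They included slp1 and slp2, then odd, with 127 and 91.6, and hry, the hairy gene, with 133 and 77.5 at 21588 bp. Among Sox and forkhead genes 8 of 20 (40%) did, at 50.8 per Mb, and the Sox21a/Sox21b summit had 289 and 278. These lists overlap in slp1 and slp2.

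Homeodomain genes outside the Hox complexes flanked members in 20 of 61 cases (32.8%), at 30.1 per Mb. The strongest summits lay beside vvl, a POU factor of trachea and brain, with signals of 197 in replicate 1 and 131 in replicate 2; oc, the head gap gene orthodenticle, with 177 and 117; otp, with 145 and 136; and ems, with 139 and 101. Of the 8 Hox genes that border such a gap, abd-A and Abd-B flanked members (25%). The abd-A summit had 243 and 204, and the Abd-B summit had 42.1 and 40.4, with 80.3 in the conservative list, beside a lower quartile of 80.2 over the members. Among bZIP genes 4 of 11 did (36.4%), at 61.2 per Mb from 8 members: slbo, REPTOR, kay, the Fos factor, and Atf3, whose summit had 44.7 and 29.4. Of the 8 members, 4 flank slbo.

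Other lists lay near or under the share of all bordering genes. Axon guidance and adhesion genes flanked members in 20 of 92 cases (21.7%), at 15.5 per Mb, and the strongest was the dpr17 summit, followed by that of 18w, a Toll-family receptor, with signals of 219.8 in replicate 1 and 202 in replicate 2. Nuclear receptor genes did so in 2 of 12 (16.7%), kni and Hr38, and cytoplasmic ribosomal protein genes in 3 of 19 (15.8%), at 5.53 per Mb. Chemosensory receptor genes flanked members in 12 of 78 (15.4%), cuticle protein genes in 4 of 38 (10.5%) and bHLH genes in 1 of 20 (5%), the hairy gene. Of 9 sex determination genes, upd1 alone did: this ligand of the JAK-STAT pathway is itself an X-linked signal element, and the summit, 11081 bp away on the side of upd3, had 124 and 67.6. Genes known by a CG number only did so in 337 of 1923 (17.5%).

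Gap lengths differed between the lists, and the shares moved with the list of peaks used. The thresholded list of replicate 1 gave 670 members and that of replicate 2 gave 468, against 776 in the conservative list. A shorter list leaves fewer members for genes to flank, so each share is read beside that of all bordering genes. The median gap was 6035 bp over all genes, 10787 bp for secreted signalling genes, 13476 bp for gap and pair-rule genes and 17192 bp for Hox genes. It was 5314 bp for cuticle protein genes and 4904 bp for bHLH genes. A longer gap gives more room for a summit, so the density per Mb is given beside the share. Densities not given above were 33.3 per Mb for gap and pair-rule genes and 30.0 for Hox genes, the latter from 5 members. They were 21.7 for genes with a CG number only, 19.1 for chemosensory receptor, 16.7 for cuticle protein, 16.1 for nuclear receptor, 10.5 for sex determination and 4.85 for bHLH genes. With the list of replicate 2 alone, the share of all bordering genes was 11.2%, that of secreted signalling genes 26.9%, of homeodomain genes 21.3%, of Hox genes 12.5%, of chemosensory genes 7.69%, of cuticle genes 5.26%, of ribosomal protein genes 10.5% and of nuclear receptor genes 8.33%. With the list of replicate 1 alone, the share of all bordering genes was 15.6%, and ribosomal protein genes gave 5.26%, bHLH genes 15% and nuclear receptor genes 25%. T-box and GATA genes stood at 41.7% and 50% in those 2 lists, and Sox and forkhead genes at 35% and 45%.

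**Figure D5:**
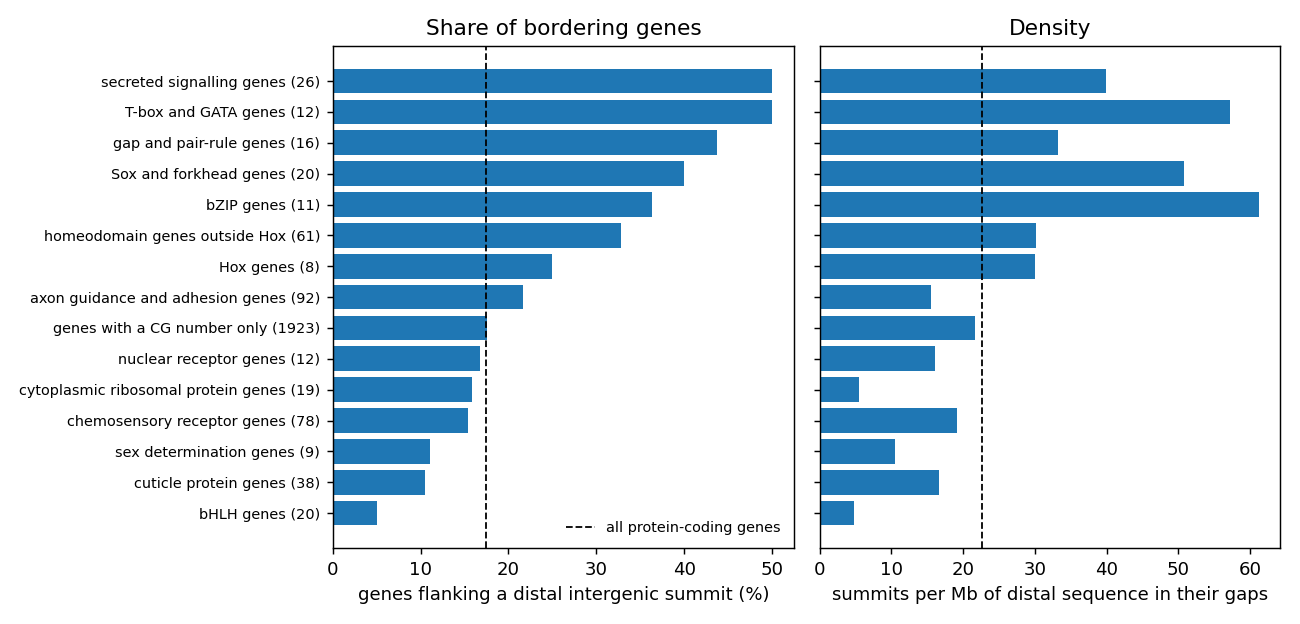
Left, the share of each list's genes that flank a distal intergenic summit, of those that border a gap with such sequence (number in brackets). Right, summits per Mb of distal intergenic sequence in their gaps. The dashed lines mark all protein-coding genes, 17.4% and 22.7 per Mb. T-box and GATA, secreted signalling, gap and pair-rule, Sox and forkhead, bZIP, homeodomain and Hox genes lie to the right of both lines, while nuclear receptor, ribosomal protein, chemosensory receptor, cuticle protein, sex determination and bHLH genes lie to the left of both.

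Noncoding RNA genes stood beside a larger share of members than of the sequence. A start of a noncoding RNA gene or pseudogene lay within 500 bp of 68 members (8.76%) and of 3.50% of the distal intergenic bases, and 60 of the 68 were starts of long noncoding RNAs. Counting also members inside such a gene, the number was 128 (16.5%), beside 8.77% of bases. The median signal of the 68 was 122, and 109.6 for the others. The strongest was the first CG4004/Paics summit, 461 bp upstream of CR44619, followed by the betaTub60D/slbo summit 153 bp upstream of CR44810 and the Psc/CG33798 summit 159 bp upstream of CR44339. The Cyt-c1L/eEF1gamma summit, with signals of 459 and 371 in replicates 1 and 2, lay 116 bp upstream of CR31044. The tsh/CG11629 summit, with 290.2 and 258, lay 215 bp downstream of the start of CR44917, and the CG9300/Shal summit, with 239 and 229, lay 381 bp downstream of that of CR44676. Upstream and downstream positions were nearly equal among the 68, 35 and 33.

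Small RNA genes account for a few of the 68, which were looked up after their counts were seen. Starts of snRNA genes lay within 500 bp of 3 members. The U6 gene at 96Ac, a spliceosomal RNA gene, lay 94 bp from a summit with a signal of 176 in the conservative list. That summit is also the one counted beside REPTOR. The U1 genes at 95Ca and 21D lay 123 and 136 bp from summits with 111 and 83.2. The start of mir-34, a microRNA known for its part in ageing, lay 159 bp from a summit with a signal of 132. No tRNA or rRNA gene start lay within 500 bp of a member, and such windows made up only 0.202% and 0.119% of the bases, too little for this to be read as an absence.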

How the data were processed

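The 2 ChIP-seq libraries of sisA-eGFP embryos form 1 group; coordinates are dm6, per the labels. The authors deposited peak lists in narrowPeak form: a conservative and a longer IDR-thresholded list over both replicates, and a thresholded list for each replicate, with longer ranked lists. Signal, score and the summit offset (unit other) are the deposited values of the authors; the peak caller, aligner and the normalization of the signal are given in none of the labels or listings used here. Another 16 columns of per-sample values could not be tied to a replicate and were not used. Read depth is unknown, and control reads were not analysed here.

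A summit was the peak start plus the offset. Genes and TSSs came from the Ensembl BDGP6 annotation and sequence from the RefSeq release 6 assembly, which dm6 denotes; every peak lay within its chromosome ends. Summits were matched between lists within 100 bp. Motifs were searched on both strands within 100 bp of the summit (150 bp for positions), beside flanks shifted by 500 bp and tiles of all bases that meet the rule. Gaps run between protein-coding gene ends. The members and the 15 gene lists were chosen with earlier results of these data known. Named genes are those flanking the 20 strongest members, the gaps with the most members, the strongest 4 genes of each list, the sex determination genes and the 6 noncoding genes at the strongest members. The text names a few more, chosen after their values were seen. A result on 1 gap is not reported here. With 1 group no test over samples was possible. Python 3.11.15, numpy 2.4.6 and pandas 2.3.3 were used; the rule and the motif search were tested on simulated positions and sequences.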

Additional observations from a re-analysis of the deposited data

How the results depend on the processing

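No paired analysis was possible because there was 1 group. The labels give no depth, and 2 replicates set the precision. A value is said to have moved when it changed by more than the SD between the values of the replicates alone. For members in both replicate lists, the SD was that between the shares found in each replicate list, 11.3 percentage points. An SD of 2 values can be very small: it was 0.0726 for the noncoding share and 0 for bZIP genes. A small change can then count as moved, so the tallies below depend on how closely the replicates happened to agree.

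For the lists of replicate 2 and replicate 1 alone, the values were 13.7% to 14.2% for the distal intergenic share of summits (15.1% in the conservative list), 0.539 to 0.557 for the density ratio (0.593), 39.1 to 41.3 for the signal percentile (41.1), 18.1% to 18.2% for members at or in noncoding RNA genes (16.5%), 29.0% to 30.6% for divergent gaps (27.6%), 40.4% to 41.7% for another member within 5000 bp (41.5%), 26.0 to 26.5 percentage points for the core's excess over the flanks (25.5) and 11.2% to 15.6% for bordering genes that flank a member (17.4%).

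In that order of results, the longer list moved the noncoding share to 17.5%, the clustered share to 42.5% and the core's excess to 24.6. Peaks above the median signal moved the share of summits to 12.1%, the ratio to 0.475, the noncoding share to 18.3%, divergent gaps to 31.5%, clustering to 36.3%, the core's excess to 28.3 and the flanking genes to 7.89%. A distance of 1000 bp gave 18.0%, 0.638, 16.4% noncoding and 29.3% divergent. A distance of 5000 bp gave 10.1%, 0.520, a percentile of 38.5, 16.2% noncoding, 23.9% divergent and 43.8% clustered. All annotated genes in place of protein-coding ones gave 11.1%, 0.510, 22.2% divergent and 35.4% clustered. The noncoding share was 14.4% within 250 bp and 20.6% within 1000 bp; clustering was 26.8% within 2000 bp and 56.4% within 10000 bp; the core's excess was 7.60 in windows of 50 bp to each side and 32.0 in windows of 150 bp, which follows from the position of the core. Added after seeing the data, the ratio was 0.656 without gaps of over 200 kb and 0.647 over bases that are not soft-masked. Members in both replicate lists were 94.7% in the ranked lists and 93.2% among peaks above the median signal. The flanking share falls with the number of members, which was 776 in the conservative list. It was 670 with replicate 1 alone, 468 with replicate 2 alone and 311 among peaks above the median signal. The cause of the other shifts was not tested.

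Of 61 such comparisons 47 moved and 14 did not; of 60 for single gene lists, 31 moved. Against the share of all bordering genes, 4 lists changed side. Nuclear receptor genes, under it in the conservative list, were above it with replicate 1 alone (25% and 15.6%) and in the longer list (25% and 19.1%). Ribosomal protein genes were above it in the longer list (21.1% and 19.1%), and sex determination genes among peaks above the median signal (11.1% and 7.89%). Genes with a CG number only were under it with replicate 1 alone (15.5% and 15.6%) and among peaks above the median signal (7.54% and 7.89%).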
